A study of Mus musculus with 6 samples.

Results

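The Fas and TRAIL death receptor genes were examined in mouse RNA-seq count data from 6 libraries. By their labels, 3 are TNFR2-deficient Treg and the other 3 are TNFR2 positive Treg. The set was fixed by name and comprises 7 of the 32377 gene identifiers counted: the receptors Fas (ENSMUSG00000024778) and Tnfrsf10b (ENSMUSG00000022074), their ligands Fasl (ENSMUSG00000000817) and Tnfsf10 (ENSMUSG00000039304), and the intracellular components Fadd (ENSMUSG00000031077), Casp8 (ENSMUSG00000026029) and Cflar (ENSMUSG00000026031). All 7 passed the filter on low counts. Treg cells are regulatory T cells, which restrain other immune cells and depend on the transcription factor Foxp3, and TNFR2, encoded by Tnfrsf1b, is a tumour necrosis factor (TNF) receptor. As labelled, the study compared Treg cells without TNFR2 with Treg cells that have it. The labels name no strain, age, tissue, treatment or sorting gate, nor the way TNFR2 was lost. Libraries held 19296082 to 24038118 counts, so that 3 counts, taken as the detection floor, correspond to 0.125 to 0.155 CPM (counts scaled to a common library total), covering counting error only. The labels name no animals or cultures, so the p-values describe the spread between libraries of a group, which could be technical.

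Death receptors are members of the TNF receptor superfamily that carry a death domain in their cytoplasmic part. When Fas binds Fas ligand, or the TRAIL receptor encoded by Tnfrsf10b binds TRAIL, the adaptor FADD is recruited, which in turn brings in caspase-8. Caspase-8 molecules activate one another there and cleave executioner caspases or the BH3-only protein BID, while c-FLIP, the product of Cflar, resembles caspase-8 and limits its activation. Fas is known on thymocytes, activated lymphocytes and hepatocytes, and Fas ligand on activated T cells and natural killer (NK) cells, where the pair removes lymphocytes after a response.

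The cell type label was checked against markers, as levels in CPM scaled by the trimmed mean of M values (TMM). Tnfrsf1b measured 8.30, 7.99 and 7.32 CPM in TNFR2-deficient libraries against 84.6, 84.2 and 80.2 CPM in TNFR2-positive libraries, in the direction of the labels. Foxp3 measured 1.34, 1.53 and 1.46 CPM against 76.9, 76.6 and 73.0 CPM. The 6 Treg markers summed to 23.8 to 29.1 CPM in the libraries labelled TNFR2-deficient and to 460.0 to 509.9 CPM in the others, and 6 of 6 were lower. The 6 B cell markers summed to 6370 to 6639 and 4991 to 5168 CPM, so that in both groups they exceeded the Treg markers. The 8 markers of double-positive thymocytes, among them Rag1 (log2 fold change 8.11), summed to 3164 to 3273 against 346.2 to 360.8 CPM. Most of the sum in the TNFR2-positive libraries came from Cd8a, Cd8b1 and Cd4, at means of 149.6, 106.1 and 91.0 CPM. Rag1, Rag2, Dntt, Ptcra and Arpp21 were at means of only 3.31, 0.193, 2.05, 0.0171 and 0.427 CPM there. The 6 erythroid markers summed to 17977 to 20529 against 4222 to 6994 CPM. The libraries labelled TNFR2-deficient therefore hold little Treg marker RNA, and in neither group are Treg markers the most abundant of these lists. TNFR2-positive replicate 1 stood apart from the other replicates of its group (chi-square per gene 13.9 and 18.5, against 2.45 between replicates 2 and 3), and without it 2 of the death receptor genes passed as higher and 5 as lower, Casp8 joining the 4 below. In such bulk RNA a lower level can come from fewer cells of a type or from less RNA per cell, which cannot be told apart here.

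The promoters of Fas, Fadd, Fasl and Tnfsf10 are shown because these genes differed between the groups whether or not each library's relation to gene length was removed, Fas and Fadd being higher and the ligands lower. Each line gives the 250 bases before the transcription start, 5′ to 3′ on the gene's strand, from RefSeq on build GRCm38.p6. This is an earlier build than the GRCm39 named for the counts, which carry no coordinates. Capitals mark matches to 6 motifs searched on both strands: the GC box GGGCGG, the AP-1 motif TGANTCA, the STAT motif TTCNNNGAA, an interferon response motif, the FOXO motif GTAAACA and the NF-kB kappa B motif. Of the 7 genes, 6 had an entry, and Tnfrsf10b had none.
Fas, chr19:34290409-34290658, plus strand: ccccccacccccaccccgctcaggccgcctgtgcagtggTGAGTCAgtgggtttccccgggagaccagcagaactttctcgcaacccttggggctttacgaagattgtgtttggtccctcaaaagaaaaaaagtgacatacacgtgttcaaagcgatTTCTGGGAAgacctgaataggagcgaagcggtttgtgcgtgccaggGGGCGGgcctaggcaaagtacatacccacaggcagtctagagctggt
Fadd, chr7:144582442-144582691, minus strand: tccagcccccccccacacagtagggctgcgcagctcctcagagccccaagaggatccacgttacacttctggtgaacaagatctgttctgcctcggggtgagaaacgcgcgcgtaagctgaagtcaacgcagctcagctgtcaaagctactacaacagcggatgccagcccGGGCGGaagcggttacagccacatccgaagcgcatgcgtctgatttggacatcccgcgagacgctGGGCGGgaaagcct
Fasl, chr1:161788496-161788745, minus strand: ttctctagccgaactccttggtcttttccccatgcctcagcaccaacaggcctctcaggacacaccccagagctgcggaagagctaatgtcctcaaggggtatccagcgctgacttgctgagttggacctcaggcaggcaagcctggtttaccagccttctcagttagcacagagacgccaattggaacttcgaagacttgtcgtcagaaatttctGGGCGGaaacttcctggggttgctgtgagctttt
Tnfsf10, chr3:27316827-27317076, plus strand: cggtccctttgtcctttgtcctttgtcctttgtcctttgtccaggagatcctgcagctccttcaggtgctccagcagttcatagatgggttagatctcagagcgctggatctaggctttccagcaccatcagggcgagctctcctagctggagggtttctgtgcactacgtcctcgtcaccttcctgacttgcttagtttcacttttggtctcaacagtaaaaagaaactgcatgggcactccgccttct
The Fas window held TGAGTCA at 211 to 205 bases before the start, TTCTGGGAA at 93 to 85 and a GC box at 47 to 42. Fadd held a GC box at 79 to 74 and another at 14 to 9 bases before the start, and Fasl held one at 34 to 29. No match to any of the 6 motifs lay in these 250 bases of Tnfsf10, Cflar or Casp8. No matches overlapped. Among 32841 promoter windows of the same length, 32.7% held the GC box, 6.75% the AP-1 motif, 7.02% the STAT motif, 7.25% the kappa B motif, 2.98% the interferon response motif and 3.17% the FOXO motif. The Fas and Fadd windows were 56.4% and 60.4% G and C and held 11 and 19 CG dinucleotides, against medians of 52.4% and 6 over all windows. The Fasl, Tnfsf10, Cflar and Casp8 windows held 7, 6, 7 and 5 CG dinucleotides. In the same order they were 53.6%, 51.6%, 42.8% and 39.6% G and C. These matches are descriptions of the letters, not binding sites.

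The set moved in both directions. At a Benjamini-Hochberg adjusted p below 0.05 in edgeR's quasi-likelihood test, fitted over 17022 genes, 2 of the 7 genes rose (Fas, Fadd), 4 fell (Fasl, Tnfsf10, Tnfrsf10b, Cflar) and Casp8 did not pass. Over all genes tested 69.3% passed, 35.1% as higher and 34.2% as lower, so 6 of 7 is near the background and is no feature of these genes. The groups did not overlap for 7 of 7 members, against 74.5% of all genes. The median log2 fold change (log2FC, TNFR2-deficient over TNFR2-positive) was -0.69 for the 7 genes and 0.04 for all genes tested. Values below are CPM for replicates 1, 2 and 3 in that order, with mean ± SD (n = 3), and the standard error (SE) of a log2FC comes from the fit.

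**Figure D1:**
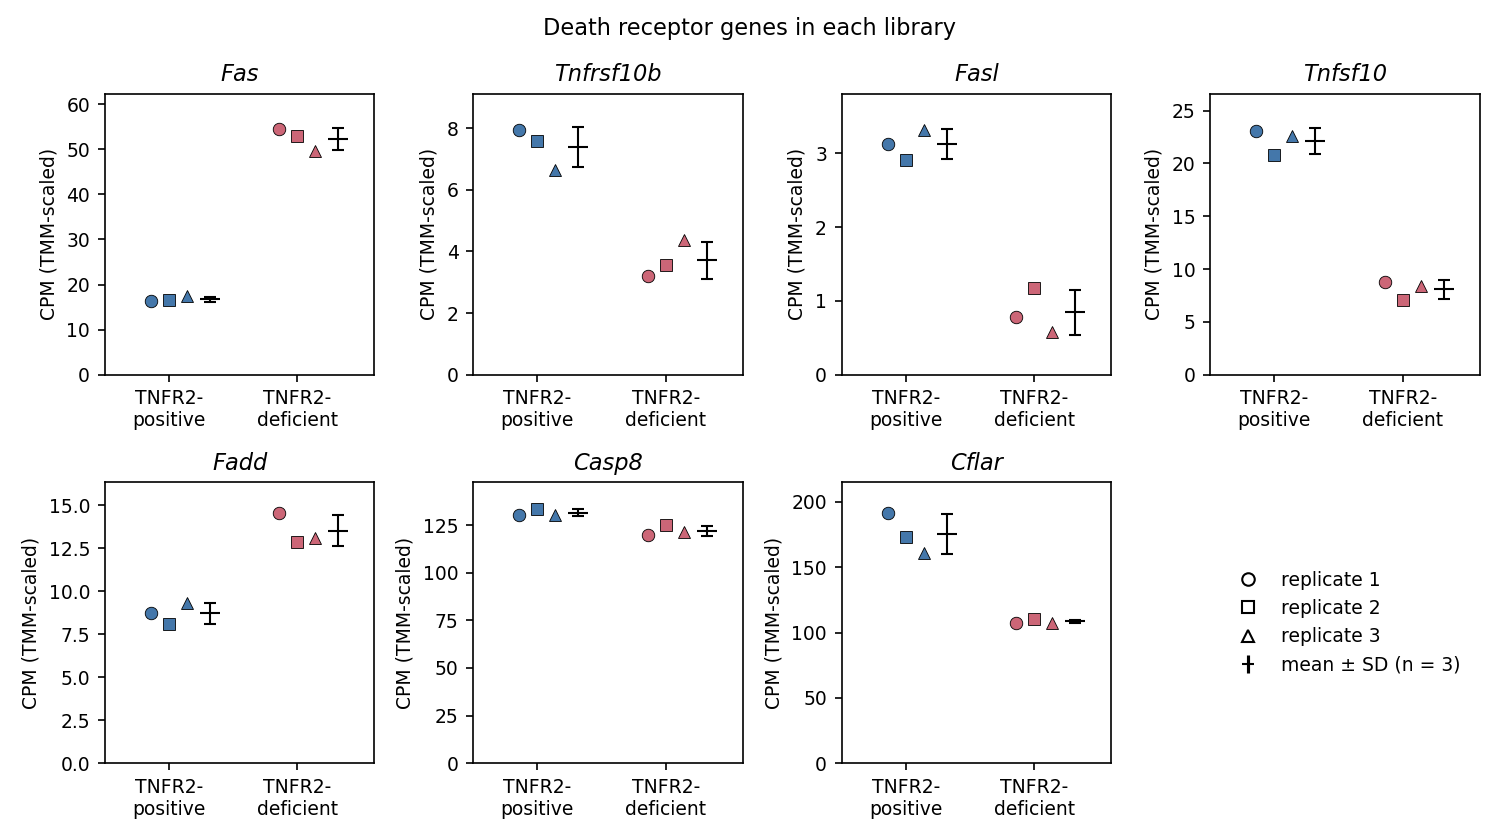
TMM-scaled CPM of the 7 genes in each library (vertical axes, linear from 0), with TNFR2-positive libraries in blue and TNFR2-deficient libraries in red; symbols give the replicate number and the bars mean ± SD of 3 libraries. Fas lies at 49.6 to 54.4 CPM against 16.4 to 17.4 CPM, Fasl, Tnfsf10, Tnfrsf10b and Cflar lie lower in the TNFR2-deficient libraries, and the Casp8 groups lie close together.

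Of the receptors, Fas rose and the TRAIL receptor gene fell. Fas, which encodes CD95, was at 54.4, 52.9 and 49.6 CPM in TNFR2-deficient libraries and at 16.4, 16.5 and 17.4 CPM in the TNFR2-positive ones. The lowest TNFR2-deficient library was well above the highest TNFR2-positive one, and the difference was 3.12-fold (log2FC = 1.64, SE 0.0689, 95% interval 1.49 to 1.79, edgeR adjusted p = 3.3e-09). Its log2FC lay above the 95th percentile of all genes tested, which was 1.38. Gm27818 is annotated on the same strand and overlaps Fas. It had no row among the counts, and how their shared reads were assigned was not tested. Between the groups, double-positive thymocyte markers (8 of 8 higher, median log2FC 7.98) and erythroid markers (6 of 6 higher, median log2FC 1.69) rose, as Fas did. Treg markers (6 of 6 lower, median log2FC -4.27) and cytotoxic and NK cell markers (8 of 8 lower, median log2FC -1.88) fell. Of 6 B cell markers 3 rose and 1 fell, and of 8 myeloid and dendritic cell markers 4 rose and 3 fell. The part of any of these cells in the level of Fas was not tested. Hepatocyte markers summed to 6.77 to 86.9 CPM in the TNFR2-deficient libraries and to 0.0512 to 0.214 CPM in the others, with 3 of the 6 at 0 counts in all TNFR2-positive libraries. Albumin (Alb) was at 63.1, 4.33 and 12.8 CPM in TNFR2-deficient replicates 1, 2 and 3. Without replicate 1 of that group the log2FC of Fas was 1.61, but the libraries that remained still held Alb. The part of hepatocyte RNA in the level of Fas was not tested.

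Tnfrsf10b encodes the mouse TRAIL receptor with a death domain. It was at 3.20, 3.57 and 4.37 CPM in TNFR2-deficient libraries and at 7.93, 7.57 and 6.65 CPM in the TNFR2-positive libraries, which did not overlap. The fall was 1.99-fold (log2FC = -0.99, SE 0.147, edgeR adjusted p = 8.86e-05). Fas and Tnfrsf10b, both receptors that recruit FADD, thus lay on opposite sides of no change, with 95% intervals of 1.49 to 1.79 and -1.31 to -0.67.

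Both ligands fell. Fasl was the scarcest of the 7 genes in the TNFR2-deficient libraries, at 18, 26 and 14 counts there and 73, 57 and 71 counts in the TNFR2-positive libraries. These are 0.778, 1.17 and 0.582 CPM against 3.13, 2.92 and 3.32 CPM, with no overlap. The ratio was 3.71-fold (log2FC = -1.89, SE 0.254, 95% interval -2.45 to -1.33, edgeR adjusted p = 4.07e-05), and the wide interval goes with the low counts. The 8 cytotoxic and NK cell markers, among them Gzmb, Prf1 and Ncr1, summed to 68.5 to 69.8 CPM in the TNFR2-deficient libraries and 196.2 to 209.4 CPM in the others. All 8 of them fell (median log2FC -1.88) and none was at 0. Of the other T cell lists, all 6 Treg markers fell (median log2FC -4.27) and all 8 double-positive thymocyte markers rose. The part of any of these cells in the level of Fasl was not tested.

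Tnfsf10 encodes TRAIL, which dendritic cells, monocytes, NK cells and T cells can make. It was at 8.82, 7.08 and 8.40 CPM in TNFR2-deficient libraries and at 23.1, 20.8 and 22.6 CPM in the TNFR2-positive ones. The SD was 11.2% of the mean in the TNFR2-deficient libraries and 5.54% in the TNFR2-positive ones. The groups did not overlap, and the fall was 2.73-fold (log2FC = -1.45, 95% interval -1.67 to -1.23, edgeR adjusted p = 2.22e-07). Of 8 myeloid and dendritic cell markers 4 rose and 3 fell, with sums of 479.4 to 510.1 against 340.8 to 361.2 CPM. The 3 that fell with Tnfsf10 are used as dendritic cell markers (Itgax, log2FC = -1.08; Zbtb46, -1.39; Siglech, -1.76), and those that rose are monocyte and macrophage genes (Lyz2, Csf1r, Adgre1 and Cd14). The remaining marker, the myeloid gene Itgam, did not rise with them (log2FC = -0.19, edgeR adjusted p = 0.177). The NK cell markers named with Fasl fell beside Tnfsf10 too. The part of these cells in the level of Tnfsf10 was not tested.

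Of the intracellular components, the adaptor rose, the protease did not pass the test and its inhibitor fell. Fadd was at 14.5, 12.9 and 13.1 CPM in TNFR2-deficient libraries and at 8.70, 8.08 and 9.32 CPM in the TNFR2-positive libraries. The groups were apart and the rise was 1.55-fold (log2FC = 0.63, SE 0.101, edgeR adjusted p = 0.000152). A gene annotated on the opposite strand of Fadd, Faddos, had 10 counts over the 6 libraries, and how many reads of it were counted as Fadd was not tested. Casp8 was at 119.6, 124.9 and 121.2 CPM against 130.4, 133.5 and 130.3 CPM. The TNFR2-deficient libraries were all lower, by 1.08-fold, but the difference did not pass (log2FC = -0.11, SE 0.0552, 95% interval -0.23 to 0.01, edgeR adjusted p = 0.0985). Gm37760, annotated on the same strand and overlapping Casp8, had 334 counts over the 6 libraries, and how their shared reads were assigned was not tested. The Casp8 difference passed with relative log expression (RLE) scaling, after an adjustment per library for the intronic and exonic lengths of genes together (length adjustment) and without TNFR2-positive replicate 1 (log2FC = -0.14, -0.14 and -0.12, edgeR adjusted p = 0.0388, 0.024 and 0.0361).

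Cflar was at 107.6, 110.2 and 107.6 CPM in TNFR2-deficient libraries and at 191.4, 173.0 and 160.9 CPM in the TNFR2-positive ones. The SD was 1.36% of the mean in the first group and 8.77% in the second, with replicate 1 highest. Counting error alone would give 2.00% and 1.63%. The fall was 1.61-fold (log2FC = -0.69, SE 0.0694, edgeR adjusted p = 4.21e-06), and the log2FC was -0.63 without TNFR2-positive replicate 1. Cflar has 12669 exonic bases in the GENCODE M21 annotation, the most of the 7 genes, and across all genes tested longer genes were lower in the TNFR2-deficient libraries (Spearman's rho = -0.298 across genes, which are not independent). After length adjustment Cflar had a log2FC of -0.11 (edgeR adjusted p = 0.0589), and the call was lost. The other members kept log2FC of 1.52 (Fas), 0.58 (Fadd), -2.19 (Fasl), -1.34 (Tnfsf10) and -0.93 (Tnfrsf10b) there. Of the 6 members that passed, Cflar was the one whose call was lost with this adjustment, in which exonic and intronic length were not tested separately.

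**Figure D2:**
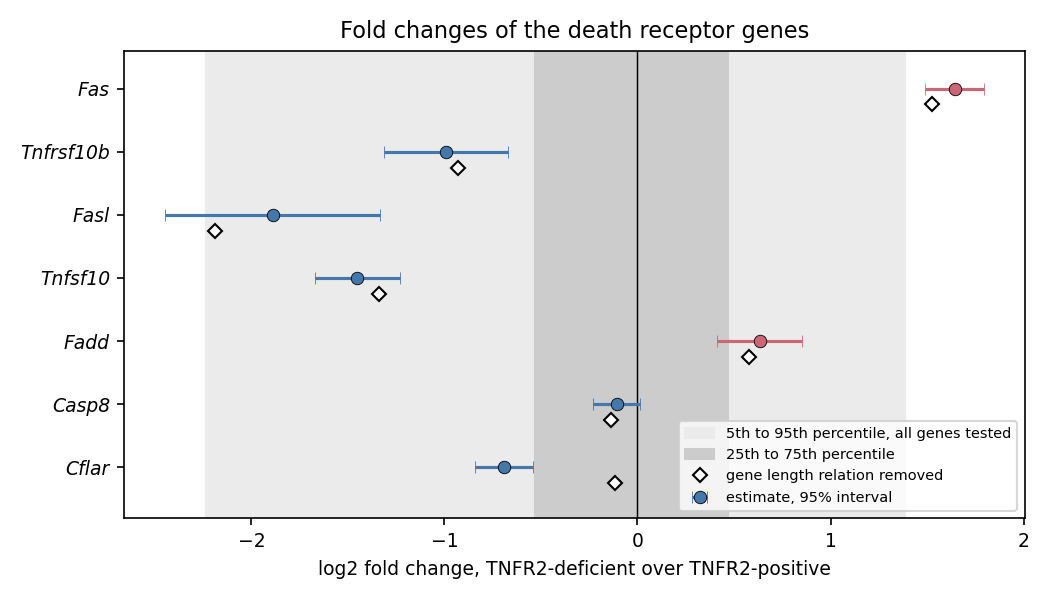
Log2 fold changes of the 7 genes (horizontal axis, TNFR2-deficient over TNFR2-positive) with 95% intervals as bars, red for higher and blue for lower estimates; open diamonds give the value with each library's relation to gene length removed, and grey bands span the 5th to 95th (light, -2.23 to 1.38) and 25th to 75th (dark, -0.53 to 0.47) percentiles of all 17022 genes. Fas alone of the 7 estimates lies outside the light band, and the diamond of Cflar lies near 0, away from its estimate.

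Ratios within a library do not depend on how libraries are scaled. The log2 ratio of Cflar to Casp8 counts, each with 0.5 added, was -0.15, -0.18 and -0.17 in the TNFR2-deficient libraries and 0.55, 0.37 and 0.30 in the TNFR2-positive ones. In linear terms there were 0.882 to 0.900 Cflar counts for each Casp8 count in the first group and 1.23 to 1.47 in the second. The groups did not overlap, with a difference of -0.58 in log2 units (two-sided exact permutation test p = 0.10, the smallest that 3 against 3 libraries allow). With length adjustment the difference was 0.025 (exact permutation p = 0.20), of the opposite sign. Gene counts also merge the long and short forms of c-FLIP.

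The log2 ratio of Fasl to Fas was -6.09, -5.47 and -6.36 in the TNFR2-deficient libraries and -2.38, -2.49 and -2.38 in the TNFR2-positive ones. There were thus 0.0117 to 0.0222 Fasl counts for each Fas count against 0.177 to 0.191. The difference of -3.56 log2 units combines a higher receptor and a lower ligand (exact permutation p = 0.10, again the smallest possible), and was -3.73 with length adjustment.

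**Figure D3:**
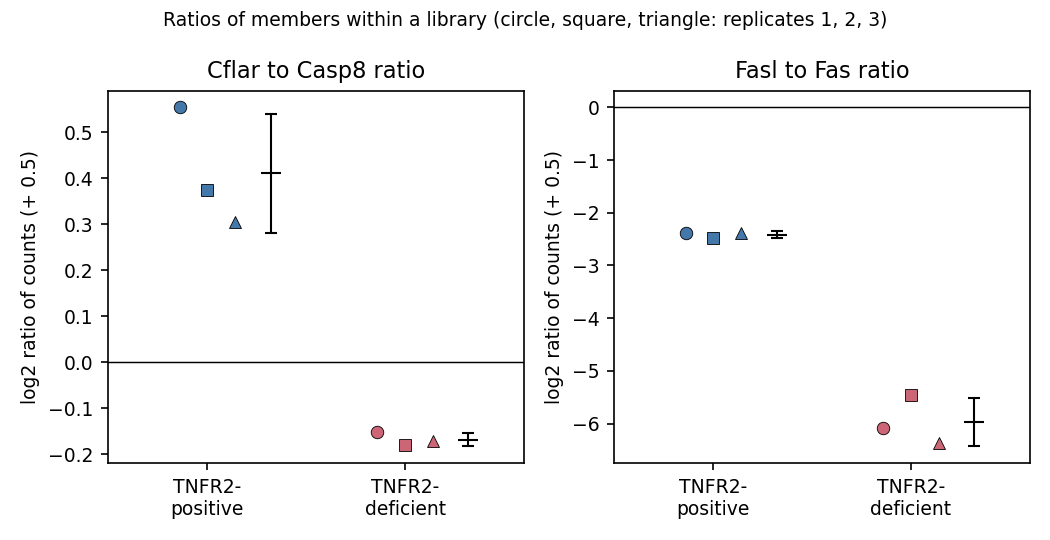
Log2 ratio of counts (vertical axes, 0.5 added to each count) of Cflar to Casp8 and of Fasl to Fas in each library, with mean ± SD of 3 libraries per group and symbols for replicates 1, 2 and 3. Cflar to Casp8 lies at 0.30 to 0.55 in the TNFR2-positive libraries and at -0.18 to -0.15 in the TNFR2-deficient ones, and Fasl to Fas at -2.49 to -2.38 against -6.36 to -5.47.

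Levels were set beside one another per kilobase of exon. In the TNFR2-positive libraries the order was Casp8 (45.4 ± 0.622 CPM per kilobase), Cflar (13.8 ± 1.21), Fas (8.13 ± 0.279), Tnfsf10 (4.21 ± 0.233), Fadd (2.23 ± 0.158), Fasl (1.61 ± 0.105) and Tnfrsf10b (1.35 ± 0.121), and the ranges of no neighbours overlapped. In the TNFR2-deficient libraries it was Casp8 (42.1 ± 0.939 CPM per kilobase), Fas (25.4 ± 1.21), Cflar (8.56 ± 0.116), Fadd (3.46 ± 0.231), Tnfsf10 (1.54 ± 0.172), Tnfrsf10b (0.681 ± 0.109) and Fasl (0.436 ± 0.155). There the ranges of Tnfrsf10b and Fasl overlapped. Fas stood above Cflar in the TNFR2-deficient libraries and below it in the TNFR2-positive ones. The length of the longest coding transcript in place of all exons gave the same order in the TNFR2-deficient libraries. In the TNFR2-positive libraries it placed Tnfrsf10b above Fadd and Fasl, so the order of the 3 lowest genes there depends on the length used.

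The 3 genes below followed Fas most closely over the 6 libraries among 9957 named genes with a mean of at least 5 CPM, by the root-mean-square difference of centred log2 CPM. They were Trbv13-2, a T cell receptor beta variable segment (0.0382 log2 units), Cyb5a, a cytochrome b5 (0.044), and Tspyl4, a nucleosome assembly protein relative (0.0448). Their log2FC were 1.67, 1.68 and 1.69 (edgeR adjusted p = 4.04e-09, 1.25e-09 and 8.04e-08). The measure mostly reads the size of the group difference.

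The wider pathway was described from 4 lists. Of 8 other death receptors and decoys 6 were tested, of which 3 rose and 2 fell (median log2FC = 0.04, the same as over all genes). Tnfrsf1a, the TNFR1 receptor that signals through TRADD, was at 39.4, 39.5 and 38.3 CPM against 16.7, 18.0 and 17.2 CPM. Like Fas it was higher in each TNFR2-deficient library, by 2.26-fold (log2FC = 1.18, edgeR adjusted p = 4.13e-08). Tnfrsf25, the death receptor DR3 of T cells, fell from 11.1 ± 0.680 to 1.86 ± 0.107 CPM (log2FC = -2.57, edgeR adjusted p = 1.75e-08). Tnfrsf22, a mouse TRAIL decoy receptor without a death domain, fell from 12.6 ± 0.831 to 6.27 ± 0.603 CPM (log2FC = -1.01, edgeR adjusted p = 8.75e-06), a log2FC close to that of Tnfrsf10b. Tnfrsf11b and Edar, singled out after their values were seen because they were not tested, had at most 1 count in any library, below the floor of 3.

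Of 18 adaptors and modifiers of the receptor complex 17 were tested, of which 6 rose and 8 fell (median log2FC = -0.08). Ptpn13, a phosphatase that binds the tail of Fas in human cells, fell from 7.76, 5.27 and 7.16 to 0.389, 0.181 and 0.416 CPM (log2FC = -4.33, edgeR adjusted p = 1.05e-07). The TNFR2-deficient libraries held 9, 4 and 10 counts of it, and its log2FC was -3.82 with length adjustment. Ripk1, the kinase at the branch between survival and death signals, fell from 65.4 ± 3.50 to 34.8 ± 1.24 CPM (log2FC = -0.91, edgeR adjusted p = 2.91e-07). Birc2, the ubiquitin ligase cIAP1, fell from 137.4 ± 9.68 to 86.3 ± 1.96 CPM (log2FC = -0.67, edgeR adjusted p = 3.31e-06). With length adjustment the log2FC of Ripk1 was -0.55 and that of Birc2 -0.67.

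Of 10 caspases and genes of the mitochondrial link, all tested, 5 rose and 3 fell (median log2FC = 0.17). Casp6, an effector caspase, rose from 17.2 ± 2.24 to 35.4 ± 1.52 CPM (log2FC = 1.05, edgeR adjusted p = 1.43e-06). Xiap, an inhibitor of caspases, fell from 177.7 ± 25.1 to 90.8 ± 7.41 CPM (log2FC = -0.97, edgeR adjusted p = 3.97e-06), and Apaf1, the scaffold of the apoptosome, fell from 64.1 ± 7.21 to 38.4 ± 2.66 CPM (log2FC = -0.74, edgeR adjusted p = 1.35e-05). With length adjustment these were -0.51 and -0.30, still past the threshold. Casp9, the caspase of the apoptosome, named after its values were seen, had a log2FC of -0.03, with a 95% interval of -0.17 to 0.11. The 5 that rose were Casp6, Bid, which links caspase-8 to mitochondria, Cycs (cytochrome c), Htra2, a mitochondrial protease, and Dffb, a DNA-cutting nuclease; all but Casp6 were named after their values were seen. The count of 5 was 2 with DESeq2, 3 with length adjustment, and 2 without TNFR2-deficient replicate 2 or without TNFR2-deficient replicate 3.

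Of 3 necroptosis genes, which carry the form of cell death that caspase-8 holds back, 1 fell and none rose (median log2FC = 0.07). Zbp1, a nucleic acid sensor, fell from 55.2 ± 1.09 to 47.0 ± 2.04 CPM (log2FC = -0.23, edgeR adjusted p = 0.00495), or by 0.37 on the log2 scale with length adjustment. Ripk3, the kinase of the pathway, had a log2FC of 0.07 (edgeR adjusted p = 0.418) and of -0.15 with length adjustment, where it passed (adjusted p = 0.045). Mlkl, the pore-forming effector, was at 1.81 ± 0.363 against 1.45 ± 0.0129 CPM (log2FC = 0.32, edgeR adjusted p = 0.231). Beside the 69.3% of all genes that passed, 5 of 6, 14 of 17, 8 of 10 and 1 of 3 tested genes of the 4 lists did.

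**Figure D4:**
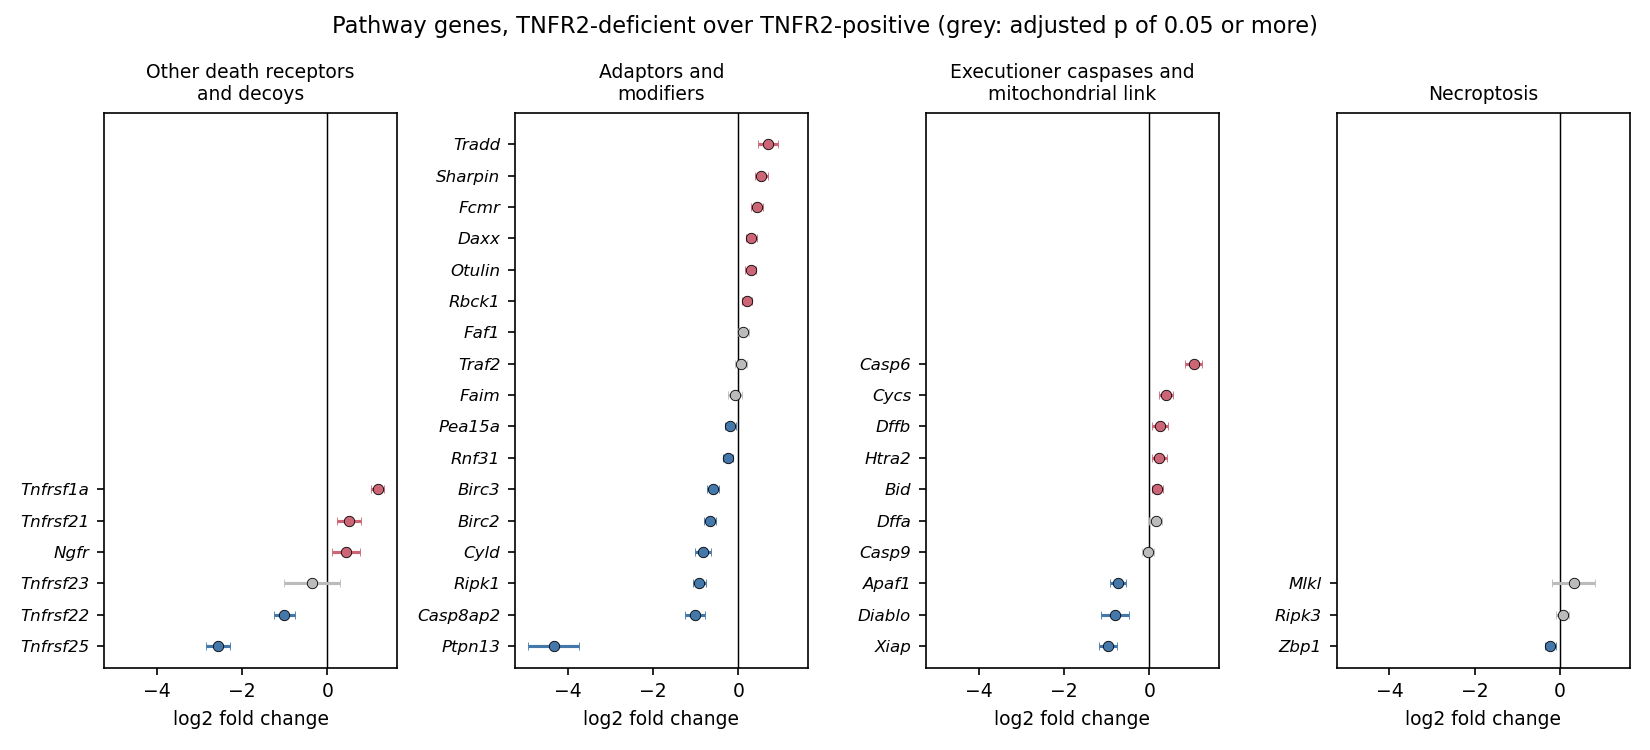
Log2 fold changes (horizontal axis, TNFR2-deficient over TNFR2-positive) of the tested genes of 4 pathway lists with 95% intervals as bars; red genes rose, blue genes fell and grey genes had an adjusted p of 0.05 or more. Ptpn13 at -4.33 and Tnfrsf25 at -2.57 lie lowest, and Tnfrsf1a at 1.18 and Casp6 at 1.05 highest.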

How the data were processed

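Whole-number read counts per Ensembl gene were deposited by the authors without normalization for 6 libraries. HISAT2 2.1.0 and build GRCm39 appear in the tool lists, per the submitters' processing notes. Per the labels' protocols, mRNA was captured with oligo-dT and amplified by PCR. How reads were assigned to genes (program, annotation, strand, shared reads) is not given in the sources used here, so isoforms and overlapping genes are not separated. Symbols matched 30529 of 32377 identifiers. A quasi-likelihood model with intercept and group (glmQLFit, glmQLFTest; edgeR 4.0.16, R 4.3.3) was fitted after filterByExpr and TMM scaling, with Benjamini-Hochberg adjustment over 17022 genes. The SE is the log2FC divided by the root of the F statistic. DESeq2 1.42.0, limma-voom (limma 3.58.1), other scalings and filters, a replicate block and leaving out each library were alternatives. Length adjustment used per-library offsets: splines (4 degrees of freedom) on exonic and intronic length (GENCODE M21, 97.7% of tested genes); applying this to the ratios was chosen after seeing the data. The script was tested on simulated data. Replicates differed by more than sampling noise (chi-square per gene 2.43 to 18.5), the highest values involving TNFR2-positive replicate 1. The genes, lists, motifs and tests were chosen with earlier results of these data known. Named were the 7 genes, Tnfrsf1b, Tnfrsf1a, in each list the 3 genes lowest in adjusted p, and the 3 nearest to Fas. The caspase list leaves out 2 genes, which are not reported here. The small number of libraries limits the precision.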

Additional observations from a re-analysis of the deposited data

How the results depend on the processing

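Over 16 alternatives the 7 death receptor genes gave 112 refits, of which 105 kept both direction and call, and none changed sign. The exceptions were the 3 fits in which Casp8 passed, Cflar with length adjustment, and Fadd, Cflar and Tnfrsf10b against a minimum log2 fold change of 1. The adjusted p of Fasl reached at most 0.00528. Against that minimum, which fewer genes can pass by construction, 764 genes were higher and 1434 lower; of the 7 genes 1 rose and 2 fell, of the other receptors 1 and 1, of the adaptors 0 and 1, of the caspase and mitochondrial list 0 and 0, and of the necroptosis genes 0 fell. The 5 higher genes of the caspase and mitochondrial list were 2 with DESeq2, 3 after length adjustment and 2 to 5 when a library was left out. With that relation removed 2 necroptosis genes were lower; Ripk3 was at -0.15, Casp9 at 0.054 and the Cflar to Casp8 difference at 0.025, each of opposite sign. Casp9 also changed sign with upper-quartile scaling (0.017). The cause was not tested. Same-numbered libraries of the groups did not deviate together (r = 0.027, 0.040 and -0.046), so the numbers were not taken as pairs. With the replicate number as a block, 6005 genes were higher and 5851 lower, the 7 genes again gave 2 and 4, and the ratio differences were -0.58 and -3.56 (sign-flip permutation p = 0.25, the smallest possible). Depth limits Fasl, at 14 to 26 counts per TNFR2-deficient library.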
